A study of Mus musculus with 12 samples.

Results

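The nuclear receptor PPAR-alpha and 7 genes of fatty acid handling that are known as its targets in liver were followed across the livers of 12 female mice. The genes were Ppara itself, Cpt1a, Cyp4a10, Cyp4a14, Pdk4, Acot1, Vnn1 and Ehhadh. Members were all probes of the array whose transcript accession maps to one of these symbols in RefSeq, which gave 13 probes for the 8 genes, out of 27502 named probes for 20882 genes and 39429 probes in all. The 13 probes were well above background on all 12 arrays, so no member was lost to a filter on dim signals.

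C57BL/6N mice, a standard inbred strain, were kept for 6 months on 1 of 4 low-fat diets, and the livers of 3 mice per diet were each hybridised to a one-colour array. The Ctrl diet took its carbohydrate from corn starch and sucrose, and the RS diet was the same with resveratrol, a plant stilbene, added. In the DJ diet the rice variety Dongjin replaced starch and sugar, and in the DJ526 diet their place was taken by the resveratrol-enriched rice DJ526, a Dongjin line that carries a stilbene synthase gene from peanut. DJ526 mice therefore ate both rice and resveratrol, and DJ mice are the comparison that differs from them by the rice line. DJ526 is a single transgenic line, and the time of day and the feeding state at tissue collection are not given in the sources used here. A supplementary sample sheet of the study pairs the RS and DJ sample records the other way round, and the groups here follow the public labels. The values of single mice and the correlations between genes do not depend on that pairing, whereas every difference that involves RS or DJ does.

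PPAR-alpha is a lipid-sensing transcription factor that pairs with the retinoid X receptor on DNA and raises transcription of the enzymes that burn fatty acids, above all in fasting. Its targets take up different steps. Cpt1a loads long-chain fatty acids onto carnitine for entry into mitochondria, Ehhadh is the bifunctional enzyme of peroxisomal beta-oxidation, and Cyp4a10 and Cyp4a14 are cytochrome P450 enzymes that hydroxylate the far (omega) end of the chain. Acot1 cleaves acyl-CoA in the cytosol, Vnn1 is a pantetheinase that recycles vitamin B5 from coenzyme A breakdown, and Pdk4 is a kinase that switches off pyruvate dehydrogenase and so spares glucose. Pdk4 and Cpt1a are also known to answer to other fasting signals.

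The 8 genes lie on 7 chromosomes. Ppara is on chromosome 15, Cpt1a on 19, Pdk4 on 6, Acot1 on 12, Vnn1 on 10 and Ehhadh on 16. Cyp4a14 and Cyp4a10 are neighbours on chromosome 4 and are followed there by the related genes Cyp4a31 and Cyp4a32 among protein-coding genes. RefSeq start regions were at hand for 5 of the genes, and those of Cpt1a and Ppara are shown because these 2 genes followed each other across mice, as described further on. Each window runs from 250 bases before to 50 bases after the annotated start in build GRCm38.p6. Capitals mark the half-site AGGTCA, which the receptor and its partner read as a pair with 1 base between, on either strand.
Cpt1a, chr19:3323051-3323350, plus strand: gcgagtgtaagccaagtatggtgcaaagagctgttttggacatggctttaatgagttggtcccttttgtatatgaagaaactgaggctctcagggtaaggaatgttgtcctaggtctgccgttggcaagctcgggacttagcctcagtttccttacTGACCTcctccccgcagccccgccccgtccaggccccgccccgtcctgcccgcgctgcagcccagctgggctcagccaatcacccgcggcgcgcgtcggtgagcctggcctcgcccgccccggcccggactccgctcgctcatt
Ppara, chr15:85735526-85735825, plus strand: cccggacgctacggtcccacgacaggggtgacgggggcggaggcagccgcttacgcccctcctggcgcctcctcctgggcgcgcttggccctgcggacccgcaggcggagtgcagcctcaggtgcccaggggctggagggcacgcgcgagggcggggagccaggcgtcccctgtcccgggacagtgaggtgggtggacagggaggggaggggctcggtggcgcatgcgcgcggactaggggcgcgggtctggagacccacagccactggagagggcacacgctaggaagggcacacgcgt
The Cpt1a window holds 1 half-site, read on the minus strand, and the Ppara window none. The windows of Pdk4, Acot1 and Ehhadh also held none. A half-site occurs in 16.3% of the 32851 promoter windows of the table, and a pair of them, AGGTCANAGGTCA, with up to 2 mismatches in 3.86%. None of the 5 member windows held such a pair, which says only that these letters are not in these windows.

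Signals are given as log2 of the probe's signal over the 75th percentile of its array, so that 0 is the level of a probe at that percentile. A level says nothing about the level of another probe. Where a gene had more than 1 probe, the brightest was used. Before scaling, that percentile lay between 952 and 1166 signal units on the 12 arrays, between 73.0 and 80.8% of spots stood well above background, and saturation was flagged nowhere. The arrays sat on 3 slides of 4 arrays. Slide 1 held the 3 Ctrl mice and DJ 1, slide 2 held DJ 2, DJ 3, RS 1 and RS 2, and slide 3 held RS 3 and the 3 DJ526 mice. Ctrl shared no slide with RS or DJ526.

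The markers of hepatocytes were bright in every mouse, with a summed level between 10.52 and 10.84. Adipocyte markers were dim but uneven. Their summed level lay between -0.43 and 0.42 in 3 mice (Ctrl 1, DJ 2 and RS 1) and between -3.29 and -2.69 in the other 9. Adipoq was well above background on 7 arrays and Cfd on 9. The 3 mice fall in 3 diet groups, and values without them are given beside the results they touch. The whole-liver RNA cannot tell fewer cells of a type from less RNA per cell.

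None of the 8 passed an adjusted p of 0.05 in any of the 6 comparisons, and for 7 of them, all but Ehhadh, at least 78.6% of the probes above background on all arrays had a smaller spread within groups. The omega-hydroxylases and Vnn1 had the largest within-group SD of the 8.

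Cyp4a14 ranged 4.20-fold over the 12 mice. Its levels were 7.63, 6.04 and 5.77 in Ctrl 1 to 3, 6.77, 6.09 and 5.56 in RS 1 to 3, 6.77, 6.98 and 7.35 in DJ 1 to 3, and 7.10, 6.24 and 6.33 in DJ526 1 to 3. One Ctrl mouse stood at the top and another near the bottom, and the DJ mice sat closest together.

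Cyp4a10 ranged 6.43-fold and placed the mice in almost the same order. It read 6.44, 4.63 and 3.75 in Ctrl, 5.40, 5.0 and 3.99 in RS, 5.12, 5.39 and 6.08 in DJ, and 5.63, 4.43 and 4.52 in DJ526. Ctrl 1 was again the highest mouse, and the lowest were Ctrl 3 and RS 3. The within-group SD of 0.88 was larger than that of 98.6% of the probes compared. The other 2 probes of Cyp4a10 followed the brightest with r of 0.995 and 0.988.

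Vnn1 spread over 5.86-fold. The values were 2.14, 1.24 and 0.35 in Ctrl, 1.90, 0.79 and 0.02 in RS, 0.70, 0.88 and 2.24 in DJ, and 1.00, 0.45 and -0.31 in DJ526. DJ 3, Ctrl 1 and RS 1 stood together at the top, from 3 different diets.

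Ppara, the receptor, varied less, 2.22-fold in all. It stood at 5.67, 4.52 and 5.10 in Ctrl, at 5.29, 5.40 and 4.77 in RS, at 4.93, 4.79 and 5.22 in DJ, and at 5.17, 4.78 and 5.12 in DJ526. Both the highest and the lowest mouse were Ctrl mice. Its 3 probes followed one another with r from 0.890 to 0.950.

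Cpt1a spanned 2.08-fold. Ctrl mice had 4.53, 3.74 and 4.00, RS mice 4.37, 4.15 and 3.84, DJ mice 3.47, 3.68 and 4.26, and DJ526 mice 4.06, 3.87 and 3.80. All 4 diet groups overlapped. Its brightest probe is printed on 10 spots of each array, and the SD of the log2 signal between those spots was 0.03 to 0.22, below the 0.32 between mice of a group. The second probe correlated with it at r = 0.887.

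Pdk4 was among the more variable members, over 3.32-fold, but ordered the mice differently. Its levels were 0.04, 1.48 and 0.94 in Ctrl, 0.60, 0.98 and -0.03 in RS, 0.66, 0.82 and 0.70 in DJ, and 1.54, 0.90 and -0.19 in DJ526. Ctrl 1, first for both Cyp4a genes, was among the 3 lowest for Pdk4.

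Acot1 ranged 4.95-fold. It measured 4.24, 3.54 and 3.59 in Ctrl, 3.17, 3.65 and 2.25 in RS, 4.08, 2.86 and 3.54 in DJ, and 4.56, 3.55 and 3.50 in DJ526. RS 3 was the lowest mouse and DJ 2 the next, and the highest was DJ526 1.

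Ehhadh was the steadiest member, within 1.59-fold, and its within-group SD of 0.20 was close to the 0.19 of the median probe. It read 4.48, 4.54 and 4.10 in Ctrl, 4.20, 4.27 and 4.67 in RS, 4.17, 4.10 and 3.99 in DJ, and 4.28, 4.57 and 4.30 in DJ526. The 3 DJ mice were low, with all RS and DJ526 mice above them, although Ctrl 3 lay among them.

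**Figure D1:**
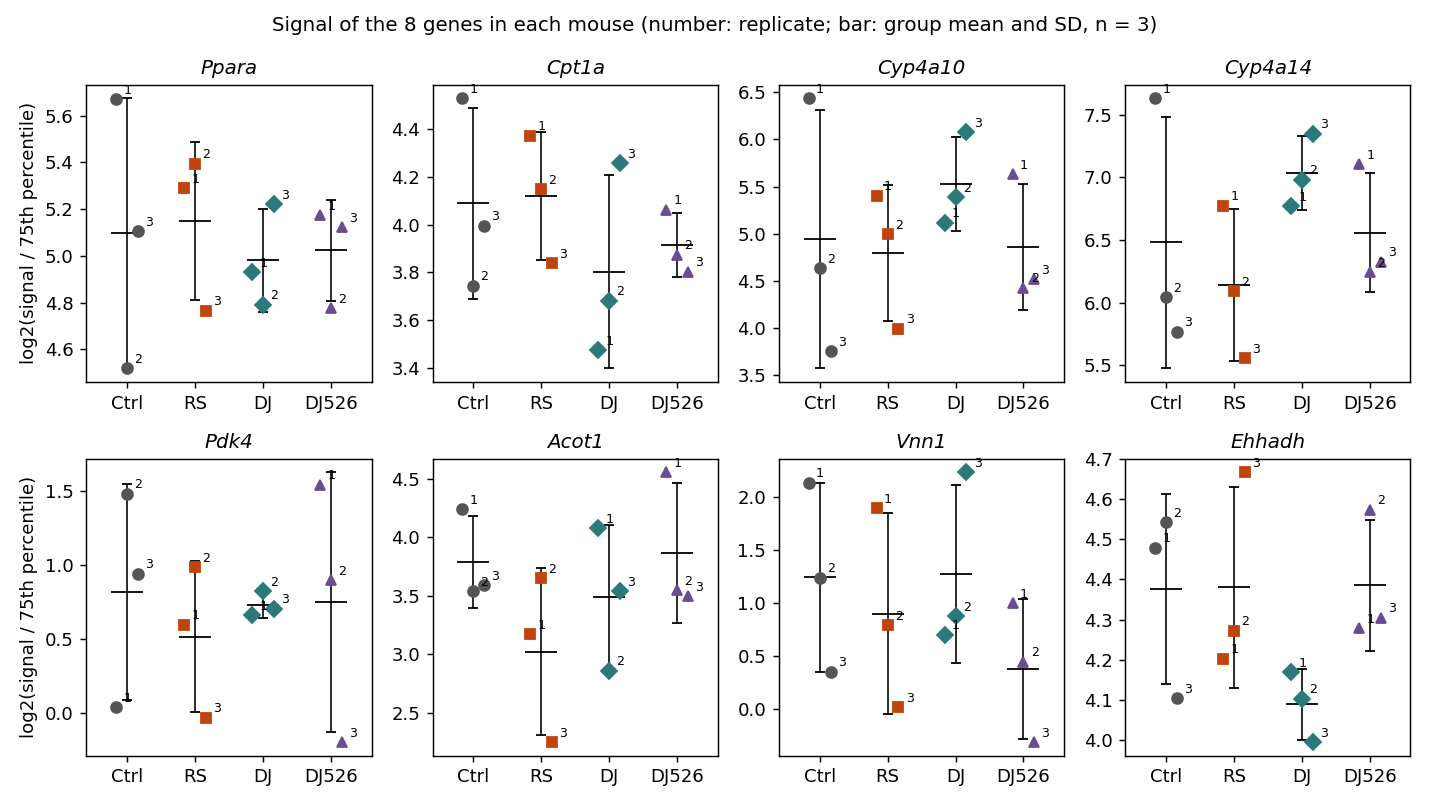
Level of each member's brightest probe in each mouse (vertical axis, log2 of signal over the 75th percentile of the array; horizontal axis, diet group), with the replicate number beside each point and bars for the group mean ± SD (n = 3). Ctrl 1 is at the top for Cyp4a10, Cyp4a14, Ppara and Cpt1a and near the bottom for Pdk4, and in the 5 comparisons made the groups overlap for every gene except DJ and DJ526 for Ehhadh.

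The share of a gene's variance that lay between the 4 diet means ran from 4.53% for Ppara and 4.67% for Pdk4 to 32.1% for Acot1 and 38.4% for Ehhadh, with 28.4% at the median probe. It was below that median for 6 of the 8 genes, all but Acot1 and Ehhadh. In the order of group means, neighbouring diets passed the adjusted threshold for no gene, where RS and DJ, neighbours for Pdk4 and Acot1, were not compared. Cyp4a14, for example, ran from DJ (7.03 ± 0.29, SD, n = 3) over DJ526 (6.56 ± 0.47) and Ctrl (6.48 ± 1.00) to RS (6.14 ± 0.61). Ppara ran from RS (5.15 ± 0.34) over Ctrl (5.10 ± 0.58) and DJ526 (5.02 ± 0.22) to DJ (4.98 ± 0.22).

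Resveratrol on the starch diet, RS against Ctrl, left all 8 genes without a call. With limma and Benjamini-Hochberg adjustment over all 39429 probes 0% of probes were called, and no member reached an unadjusted p of 0.05, as 6% of all probes did. The largest difference was that of Acot1, 0.77 lower on the log2 scale in RS (log2 fold change -0.77, SE 0.41, 95% interval -1.68 to 0.15, limma adjusted p = 0.880). With slide as a block the estimate for Acot1 changed sign, to 0.50, in a fit that ties RS and Ctrl only through DJ 1. Ppara itself differed by 0.05 (interval -0.52 to 0.63) and Ehhadh by 0.01 (interval -0.31 to 0.32). No member separated the 3 mice from the other 3, which 10.2% of probes did. A comparison of 3 mice with 3 cannot go below p = 0.10 in a two-sided exact permutation test.

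Rice in place of starch and sucrose, DJ against Ctrl, gave 0 calls among the 8 genes and 0% among all probes. Cyp4a10 was 0.59 higher (interval -0.77 to 1.94) and Cyp4a14 0.55 higher (interval -0.45 to 1.56), both within the spread of the Ctrl mice. Without Ctrl 1 these differences were 1.34 and 1.13, with limma adjusted p of 0.832 and 0.782. Ehhadh was lower by a log2 fold change of -0.29 (SE 0.14, interval -0.60 to 0.03, limma adjusted p = 0.971). The dimmer Cpt1a probe was the only 1 of the 13 member probes under an unadjusted p of 0.05 in this or any other comparison, against 5.2% of all probes, and its brighter partner differed by -0.29 (interval -0.79 to 0.22). None of the 8 genes separated the groups, beside 9.36% of probes. On slide 1, the only slide with both diets, the 1 DJ mouse differed from the 3 Ctrl mice by -0.62 for Cpt1a, -0.21 for Ehhadh and 0.29 for Cyp4a14. There Acot1 and Vnn1 ran against the comparison of all mice, with 0.29 and -0.54 on the slide beside -0.30 and 0.03.

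DJ526 against Ctrl, which changes rice and resveratrol together, again had 0 members called, beside 0.00507% of all probes, and 0 under an unadjusted p of 0.05, beside 10.8%. Vnn1 showed the largest difference, 0.87 lower (log2 fold change -0.87, SE 0.59, interval -2.16 to 0.43, limma adjusted p = 0.619). Without Ctrl 1, the only mouse of these groups with high adipocyte markers, that difference was -0.42. The other 7 differed by at most 0.18 in either direction, but not in every setting. The 2 groups shared no slide, and with slide as a block Acot1 went from 0.08 to 2.12 (limma adjusted p = 0.335). In that fit DJ526 and Ctrl are tied only through the single mice RS 3 and DJ 1. Without Ctrl 1 Cyp4a10 went from -0.08 to 0.67 and Cyp4a14 from 0.08 to 0.65. The interval for Ehhadh, -0.31 to 0.33, was the narrowest, and that for Cyp4a10, -1.43 to 1.27, still allowed more than a doubling. No member separated the groups, whereas 20.6% of probes did.

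DJ526 against DJ is the comparison in which both groups ate rice. It had 0 of the 8 genes called beside 0.0101% of probes, and 0 under an unadjusted p of 0.05 beside 9.84%. Ehhadh was 0.30 higher in DJ526 (SE 0.14, interval -0.02 to 0.61, limma adjusted p = 0.531), and its 3 DJ526 mice all lay above the 3 DJ mice. This was the only member without overlap in the 5 comparisons, and 18.4% of all probes showed the same in this one. Vnn1 was lower by a log2 fold change of -0.90, Cyp4a10 by -0.67 and Cyp4a14 by -0.48. The 2 groups shared no slide. With slide as a block all 4 estimates turned, to -0.09 for Ehhadh, 0.15 for Vnn1, 0.33 for Cyp4a10 and 0.27 for Cyp4a14. Acot1 kept its sign and went from 0.38 to 1.83 (limma adjusted p = 0.580). In that fit DJ526 and DJ are tied only through RS 3. This mouse had the lowest Acot1 and Cyp4a14 and the highest Ehhadh of all mice. The part of the slides in these differences was not tested further.

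DJ526 against RS compares resveratrol from the rice with resveratrol as an additive, and the 2 diets differ in their carbohydrate source as well. It had 0 members called beside 0.00761% of probes, and 0 under an unadjusted p of 0.05 beside 5.52%. Acot1 was 0.84 higher in DJ526 (SE 0.41, interval -0.07 to 1.75, limma adjusted p = 0.945), and RS 2 at 3.65 lay above 2 of the DJ526 mice. On slide 3 the 3 DJ526 mice exceeded the single RS mouse by 1.62 for Acot1 and 1.0 for Cyp4a14. The sign there was opposite to that over all mice for Vnn1 (0.36 beside -0.52), Ppara (0.26 beside -0.13), Cpt1a (0.07 beside -0.21) and Ehhadh (-0.28 beside 0.005). No member separated the groups, beside 11.1% of probes. The contrast of the 2 resveratrol effects, DJ526 minus DJ against RS minus Ctrl, had 0 members and 0% of probes called, with 6.09% of probes and no member under an unadjusted p of 0.05.

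**Figure D2:**
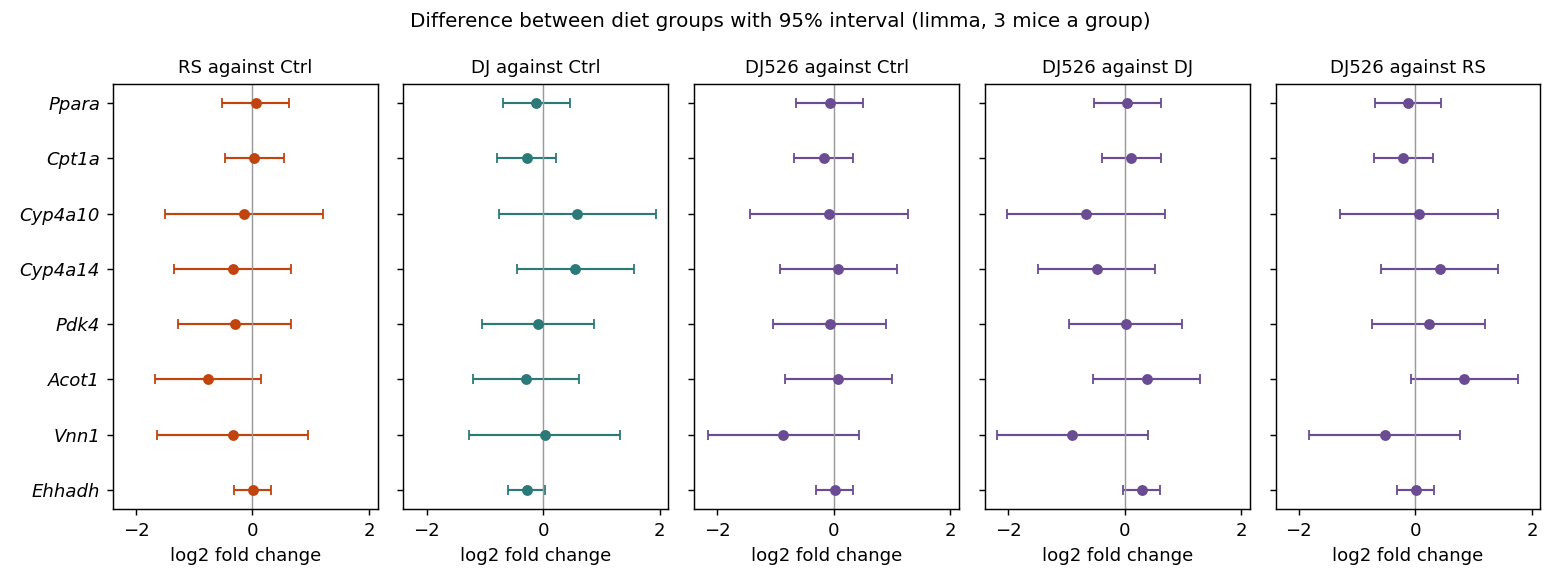
Log2 fold change of each member's brightest probe (horizontal axis, limma, 3 mice a group) with its 95% interval, 1 panel per comparison. Every interval holds 0, and those of Cyp4a10 and Vnn1 are the widest. The 3 comparisons against Ctrl use the same Ctrl mice.

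Covariation between mice was seen for some of the 8 genes. Of the 28 pairs of members, 18 correlated positively over the 12 mice, and 3 pairs passed a Benjamini-Hochberg adjusted p of 0.05 over the 28 in two-sided permutation tests on Pearson's r.

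Cyp4a10 and Cyp4a14 followed each other most closely, with r = 0.953 and rho = 0.930 (permutation p = 2e-05, adjusted p = 0.00056, n = 12). The relation did not rest on the extremes. Without the 2 mice farthest from the median of Cyp4a10, Ctrl 1 and Ctrl 3, r was 0.933. Within diets, after the group mean had been taken off each mouse, r was 0.976 (exact permutation p = 0.000772), and within slides it was 0.955 (exact permutation p = 0.000145). Without the 3 mice with high adipocyte markers r was 0.930. The 2 genes are related neighbours, and signal shared between their probes by cross-hybridisation could not be checked.

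Cyp4a10 and Vnn1 correlated at r = 0.821 and rho = 0.853 (permutation p = 0.00135, adjusted p = 0.0156). Without Ctrl 1 and Ctrl 3 r was 0.790, within diets 0.878 and within slides 0.803. The adjusted p was 0.0814 without Ctrl 1 alone (r = 0.766), 0.0790 within slides and 0.195 without the 3 mice with high adipocyte markers (r = 0.774).

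Ppara and Cpt1a made the third pair, with r = 0.806 and rho = 0.797 (permutation p = 0.00167, adjusted p = 0.0156). Without Ctrl 2 and Ctrl 1, the mice farthest from the median of Ppara, r was 0.730. It was 0.814 within diets and 0.791 within slides, with adjusted p of 0.0617 and 0.118. Without Ctrl 1 alone r was 0.709 with adjusted p = 0.150, and without the 3 mice with high adipocyte markers r was 0.634 with adjusted p = 0.271. The part of fat tissue in this relation was not tested further.

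With diet means removed, 6 pairs passed the adjusted threshold, in exact permutation tests over all 1296 rearrangements within groups. They were all the pairs among Cpt1a, Cyp4a10, Cyp4a14 and Vnn1. The Ctrl mice had the largest SD of the diets for Cyp4a10 (1.37) and Cyp4a14 (1.00). For Cpt1a it was that of DJ (0.41) and for Vnn1 that of RS (0.95). These pairs were not tested within diets without Ctrl 1. Cpt1a then correlated with Cyp4a14 at r = 0.835, with Cyp4a10 at 0.808 and with Vnn1 at 0.837, compared with 0.434, 0.540 and 0.672 over all mice. Cyp4a14 and Vnn1 reached 0.861. With slide means removed only Cyp4a10 and Cyp4a14 still passed, and Cpt1a correlated with Cyp4a14 at r = 0.375.

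Pdk4 stood apart. Its r with the other 7 members ran from -0.297 with Ppara to 0.368 with Acot1, and with Cyp4a10 and Cyp4a14 it was 0.01 and -0.02. None of its pairs had a permutation p under 0.24. Ehhadh correlated negatively with all 7, from -0.399 with Cyp4a14 to -0.067 with Cpt1a, and no pair of it passed. Its r with Cyp4a10 was -0.313 over all mice and -0.883 without Ctrl 1 and Ctrl 3 (permutation p = 0.00073, not adjusted, n = 10). Over all 12 mice the r of this pair was -0.114 within diets and -0.055 within slides. Acot1 was positive with every member but Ehhadh, at most 0.520 with Cyp4a14 (permutation p = 0.0822), and without Ctrl 1 and RS 3 that r was 0.103.

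**Figure D3:**
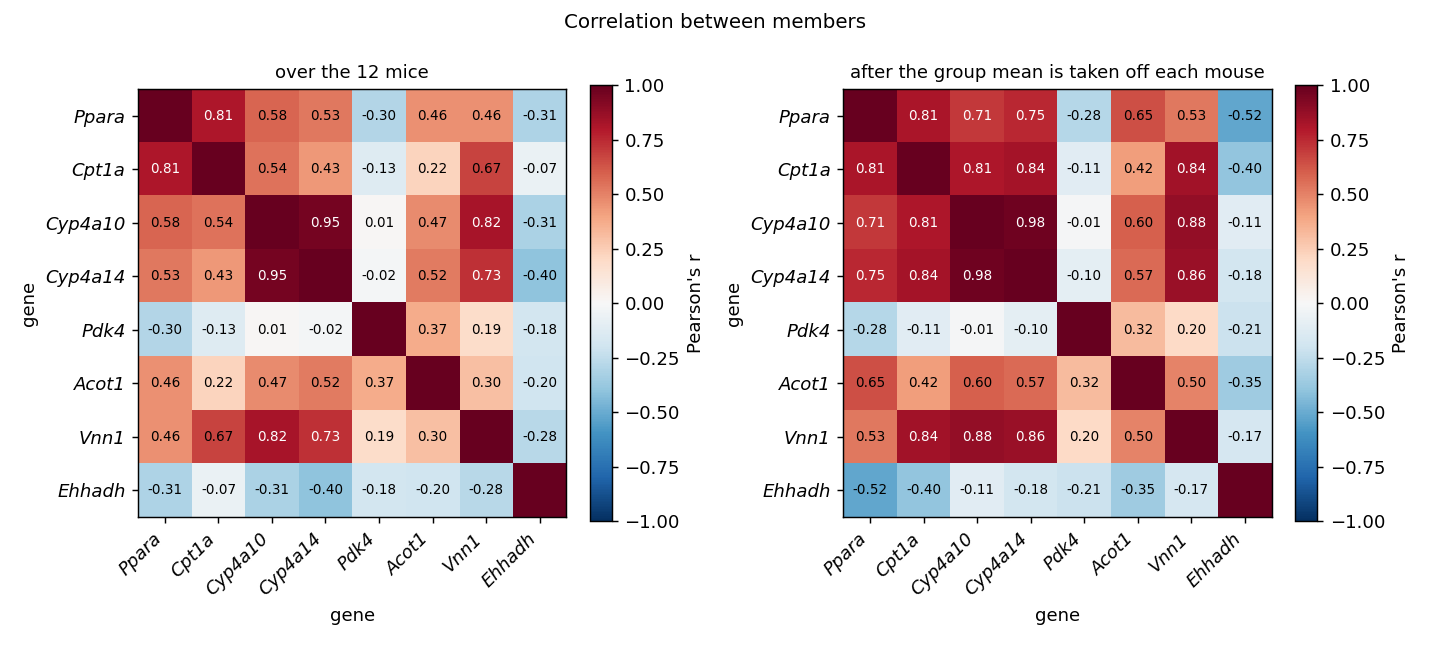
Pearson's r between members over the 12 mice (left) and after the diet mean has been taken off each mouse (right), with the 8 genes on both axes and colour from -1 to 1. Cyp4a10, Cyp4a14 and Vnn1 form a block with r from 0.73 to 0.95 that widens to Cpt1a on the right, while the rows of Pdk4 and Ehhadh stay pale or blue.

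**Figure D4:**
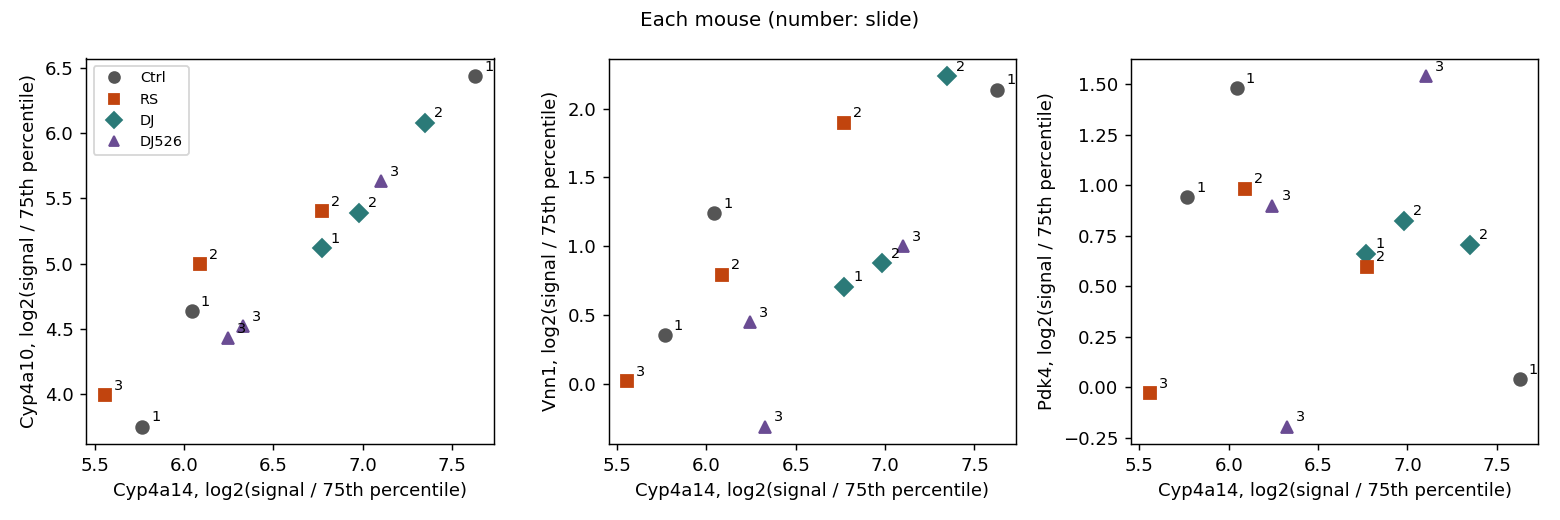
Levels of Cyp4a10, Vnn1 and Pdk4 (vertical axes) against Cyp4a14 (horizontal axes), all as log2 of signal over the 75th percentile, with 1 point per mouse, shapes for diets and the slide number beside each. Cyp4a10 follows a line that runs through all diets and slides (r = 0.953), and Pdk4 shows no trend (r = -0.02).

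The genes most like each member over the 12 arrays are given as a description, by the highest r among 20272 named probes above background on every array. For Cyp4a10 these were Cyp4a31 (0.997), Cyp4a32 (0.995) and Tmem43 (0.980), and for Cyp4a14 they were Cyp4a31 and Cyp4a32 (both 0.954) and Tmem43 (0.952). Cyp4a31 and Cyp4a32 are close relatives next door in the genome, and probe sequences are not used here, so signal shared between these genes by cross-hybridisation cannot be told from shared expression. Tmem43, a membrane protein gene, is no relative of them.

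For Vnn1 the list was Arel1 (0.951), Noc2l (0.945) and Decr1 (0.940), the last a reductase needed to oxidise unsaturated fatty acids in mitochondria. Decr1 was also second for Cpt1a (0.910, by another, dimmer probe), after Aifm2 (0.933) and before Nln (0.899). The brightest Decr1 probe, which is the one listed for Vnn1, had r = 0.643 with Cpt1a. For Ppara they were Plcxd2 (0.908), Cyp2e1 (0.908), a cytochrome P450 of ethanol and ketone metabolism, and Pofut2 (0.899). Acot1 had Ighmbp2 (0.896), Bod1 (0.891) and Cdkn1b (0.885).

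Pdk4 was most like Fgf21 (r = 0.859, rho = 0.867), the hepatic hormone of fasting, followed by Dnase1l3 (0.832) and Mast4 (0.826). Fgf21 is a textbook PPAR-alpha target, yet it correlated with Cyp4a14 at only 0.12. Ehhadh had Tmem35a (0.933), Methig1 (0.909) and Aire (0.907), whose levels between -6.84 and -3.68 were far below the 75th percentile of the arrays. The median deviation of the probes printed around the Ehhadh spot followed Ehhadh with r = 0.632, within -0.05 to 0.07 on the log2 scale, and its part in these likenesses was not tested. Around the spots of the other 7 members that r lay between -0.356 and 0.371.

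The wider pathway was read from 8 lists with 91 genes, all of which had a named probe. In the diet comparisons none of the 91 passed the adjusted threshold. Under an unadjusted p of 0.05 were 4 genes in RS against Ctrl, 5 in DJ against Ctrl, 8 in DJ526 against Ctrl, 6 in DJ526 against DJ and 1 in DJ526 against RS, or 4.40, 5.49, 8.79, 6.59 and 1.1% of the list. Of all probes, as given above, 6, 5.2, 10.8, 9.84 and 5.52% did so. The median log2 fold change of the 91 genes lay between -0.10 and -0.01 in these 5 comparisons, with medians of all probes between -0.01 and 0.04.

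Across mice the same genes moved with the members to very different extents. Counted by r above 0.6, 43 of the 91 followed Vnn1, where 7.70% of all named probes did. The counts were 35 for Cyp4a10 (4.40% of probes), 30 for Cyp4a14 (3.67%), 23 for Cpt1a (4.32%) and 16 for Ppara (2.91%). They were 7 for Acot1 (2.78%), 2 for Ehhadh (6.34%) and 1 for Pdk4 (1.05%), which was Fgf21.

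The carnitine shuttle and mitochondrial beta-oxidation list followed Cyp4a14 closely, with 12 of 18 genes above 0.6 and a median r of 0.643. Cpt2, which returns fatty acids from carnitine to CoA inside mitochondria, had r = 0.67 with Cyp4a14 and 0.87 with Vnn1. Slc25a20, the carnitine-acylcarnitine carrier, had 0.65 and 0.91. Acadm, the medium-chain dehydrogenase, had 0.51 and 0.29. The list's median r with Pdk4 was -0.02.

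Ketogenesis behaved alike, with 4 of 6 genes above 0.6 and a median r of 0.677 with Cyp4a14. The hydroxybutyrate dehydrogenase Bdh1 had r = 0.63 with Cyp4a14 and 0.74 with Vnn1. Of the peroxisomal list 3 of 14 were above 0.6 with Cyp4a14, at a median of 0.360, and 10 of 14 with Vnn1, at a median of 0.620. In it the thiolase Acaa1b had 0.55 with Cyp4a14 and Pex11a, a factor of peroxisome division, 0.37. Ehhadh belongs to the same peroxisomal route, and its r with these 2 genes was -0.00 and -0.25.

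Among receptors and partners 1 of 10 genes was above 0.6 with Cyp4a14. This was Creb3l3, a liver transcription factor that works with the receptor in fasting, which had r = 0.75 with Cyp4a14, 0.79 with Ppara and 0.85 with Cpt1a. Rxra, the receptor's partner, had 0.39 with Cyp4a14 and 0.69 with Ppara. Ppargc1a, a coactivator, had 0.08 and -0.22. In the uptake and activation list, 3 of 10 were above 0.6 and 2 below -0.6. The fatty acid transporter Cd36 had 0.65 and the acyl-CoA synthetase Slc27a2 0.76, while Fabp1, the main fatty acid binding protein of liver, had -0.02.

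The omega-oxidation list held 3 of 10 genes above 0.6, of which Cyp4a31 and Cyp4a32 are the relatives named above. It held 1 below -0.6, Cyp4a12a at -0.75, whose signal was dim, between -5.08 and -3.92. Aldh3a2, the aldehyde dehydrogenase of the next step, had 0.33. The thioesterases had 1 of 9 above 0.6 and 1 below -0.6, Acot7 at -0.87, with Acot2 at 0.58, Acot3 at 0.14 and Acot4 at 0.19. Of the other targets 3 of 14 were above 0.6, and Angptl4, an inhibitor of lipoprotein lipase, had 0.32 and the lipid droplet protein Plin2 0.27.

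Outside the pathway, 6 of 6 lipogenic genes had an r below -0.6 with Cyp4a14. The r was -0.75 for fatty acid synthase Fasn, -0.73 for Acaca, -0.72 for Scd1, -0.79 for Me1 and -0.70 for Pnpla3, where 3.74% of all named probes lay below -0.6. Pnpla3, a lipid droplet protein, ranged from -0.94 to 2.59 over the mice and Scd1, the desaturase, from 5.03 to 7.90. The median r of the list with Pdk4 was 0.22. Of the 5 fasting genes 2 had r above 0.6 with Pdk4. It correlated with G6pc, the last enzyme of glucose release, at 0.75 and with Igfbp1, which insulin lowers, at 0.73, and Cyp4a14 correlated with these at 0.18 and -0.18. The other 3 had -0.26 (Pck1), 0.09 (Tat) and -0.06 (Sds) with Pdk4, and the median of the 5 was 0.09. With Cyp4a14 Pck1 had 0.15, Tat -0.59 and Sds -0.60. Of 7 clock genes with a value on every array, Pdk4 correlated with Per3 at -0.72, Dbp at -0.64 and Ciart at -0.63. Cyp4a14 had -0.15, 0.21 and -0.14 with Per3, Dbp and Ciart, which are named for their r with Pdk4. With Cyp4a14 the clock gene below -0.6 was Per2, at -0.64, and Per2 had -0.24 with Pdk4.

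The pathway counts held in part when mice or means were taken out. Of the 90 pathway genes above background on every array, 30 had r above 0.6 with Cyp4a14, 21 without Ctrl 1, 21 without the 3 mice with high adipocyte markers, 48 within diets and 31 within slides. The matching shares of all named probes were 3.67, 3.95, 4.90, 7.36 and 4.40%. The r of all 6 lipogenic genes with Cyp4a14 was negative in each of these settings. All 6 were below -0.6 over all mice and within diets, and 5 of them without Ctrl 1, without the 3 mice with high adipocyte markers and within slides. The summed adipocyte markers themselves correlated with Cyp4a14 at r = 0.571, those of macrophages and Kupffer cells at 0.384 and those of hepatocytes at -0.06. Markers of cholangiocytes had -0.427 and those of pancreatic acinar cells -0.332. The sums of the remaining marker lists lay between -0.272 and 0.249. Their part in the covariation was not tested beyond these values.

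**Figure D5:**
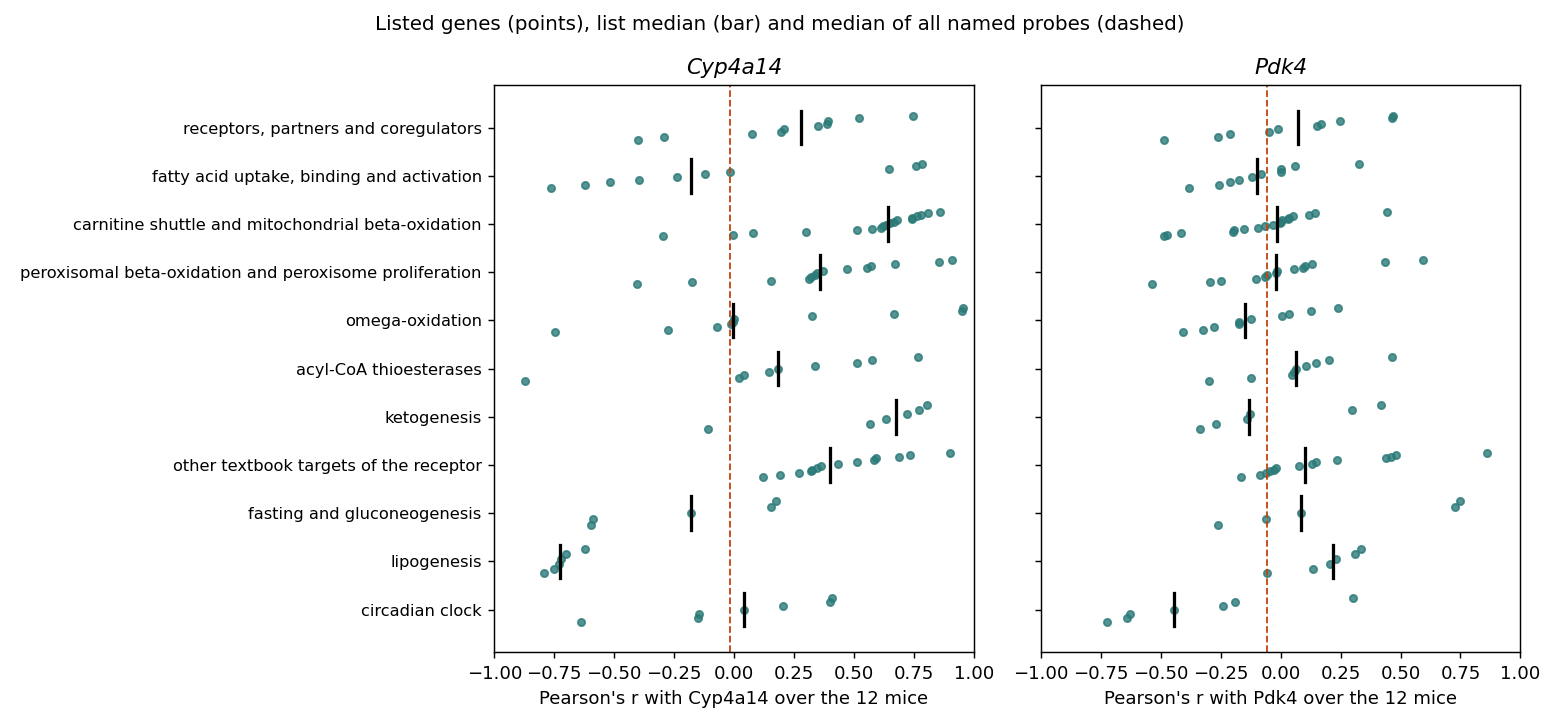
Pearson's r over the 12 mice of each listed gene (points, horizontal axis) with Cyp4a14 (left) and Pdk4 (right), by list (vertical axis), with list medians as bars and the median of all named probes as a dashed line. Mitochondrial beta-oxidation and ketogenesis lie to the right and lipogenesis to the left for Cyp4a14, at medians of 0.643, 0.677 and -0.726, and at -0.02, -0.13 and 0.22 for Pdk4.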

How the data were processed

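Liver RNA from 12 mice was hybridised to one-colour Agilent mouse arrays, and the labels state Trizol extraction. The authors deposited, for each array, the scanner software's intensity values (Feature Extraction 11.5.1.1, background-subtracted processed signal, with median pixel and background intensities) and a table of globally normalized intensities. The latter equalled the processed signal times 1 factor per array, 0.959 to 1.08, for at least 99.83% of probes within a relative tolerance of 0.0001. Spots flagged as outliers (93 to 197 per array) were left out and spots of a probe averaged. Intensities were scaled to the 75th percentile of each array and taken to log2. RefSeq (GRCm38.p6) named 69.8% of the 39429 probes by accession. The file headers name build mm9, so no probe coordinates are given.

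Groups were compared in limma 3.58.1 (R 4.3.3), with 1 mean per group over all 12 arrays, a prior that follows mean signal, and Benjamini-Hochberg adjustment over all probes at 0.05. The fit was also run on simulated arrays with independent noise and no slide effect, which cannot show how slides or outlying mice act on it. Correlations used 100000 permutations, or all rearrangements within groups (1296) or slides (13824), in Python 3.11.15 with numpy 2.4.6. For r without extremes, the 2 mice farthest from the median of the pair's first gene were dropped. Alternatives covered background correction, scaling, the deposited table, dim probes, the prior, slide, replicate number, the samples in the fit, the methods' t-test, averaging probes and leaving out mice. Named genes were the members, the first 3 genes of each pathway list, any listed gene past the threshold, and the 3 most like each member. Some listed genes are counted with their list and not reported by name here. Genes of the lipogenesis, fasting and clock lists were picked after their values were seen. Cyp4a12a and Acot7 fall outside these rules and were named for their r below -0.6 with Cyp4a14. Members and lists were chosen with earlier results of these data known. The array number limits the precision. The labels do not describe the mice as littermates or pools, and p-values measure the spread between these arrays. The paper reports that shared cages were assigned to the diets, so mice of a diet may come from the same cage. The tests treat the mice as independent, and the part of the cage was not tested. G6pc1 is named by its older symbol G6pc.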

Additional observations from a re-analysis of the deposited data

Results flagged for a closer look

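Acot1 drew attention because its estimates for resveratrol had opposite signs on the 2 diets. All 3 RS mice lay below the Ctrl mean, and all 3 DJ526 mice lay above the DJ mean. The lowest of the latter was at 3.50, against a DJ mean of 3.49. Single mice overlapped in both comparisons. RS 2 at 3.65 lay above Ctrl 2 (3.54) and Ctrl 3 (3.59). DJ 1 at 4.08 lay above DJ526 2 (3.55) and DJ526 3 (3.50). The difference between the 2 effects was 1.14 on the log2 scale (SE 0.59, 95% interval -0.15 to 2.43, limma adjusted p = 0.855), so it did not pass the test. RS 3 was the lowest mouse and shared its slide with the DJ526 mice. With slide as a block both effects ran the same way, at 0.50 for RS against Ctrl and 1.83 for DJ526 against DJ. Neither passed the adjusted threshold. That fit ties RS and Ctrl only through DJ 1, and DJ526 and DJ only through RS 3, so each value depends on 1 mouse.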

How the results depend on the processing

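No member was called in any comparison under any alternative run. Of 1184 member fold changes recomputed, 6 changed sign from a value larger than its standard error, all with slide as a fixed block. They were Acot1 in RS against Ctrl (0.50), Cyp4a10 (0.33), Cyp4a14 (0.27), Vnn1 (0.15) and Ehhadh (-0.094) in DJ526 against DJ, and Ehhadh in the contrast of resveratrol effects (-0.076). In that fit RS and Ctrl are tied only through DJ 1, and DJ526 and DJ only through RS 3. The estimates thus depend on single mice, and the cause was not tested further. The 3 correlated pairs became 5 with median scaling, 6 within diets, 1 within slides, 0 with the replicate block and 1 without the 3 mice with high adipocyte markers, an alternative chosen after seeing the data. Leaving out 1 mouse gave 1 to 4 pairs, with 1 without Ctrl 1. Replicate numbers were not taken to pair the mice in the main fit. Of 18 same-numbered pairs 6 had deviations correlated above 0.1 (range -0.35 to 0.41), a count that cannot decide whether they do. Cyp4a10 and Cyp4a14 kept r between 0.923 and 0.976 in all settings, with a permutation adjusted p of at most 0.0557. Under normexp Pdk4 had 11 arrays. Calls over all probes ranged from 0 to 4 in RS against Ctrl, 11 in DJ against Ctrl, 173 in DJ526 against Ctrl, 107 in DJ526 against DJ, 40 in DJ526 against RS and 19 in the contrast, from 0, 0, 2, 4, 3 and 0. The maxima of 173 and 107 came without RS 3. The methods' t-test called 0, 0, 0, 1 and 0 probes after adjustment in the first 5, and 1977, 1818, 5053, 4283 and 2413 before it. It and the fit on only the groups compared were not run for the contrast.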
